A study of Triticum aestivum with 3 samples.

Results

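The transcripts described here carry ids such as Novel13637 or Novel08264 in the deposited degradome tables of wheat leaves, a prefix and a number that give no chromosome. They are called unplaced ids below, after that property of the id, and no statement about the transcripts themselves is meant by it. All lines that pair such a transcript with a small RNA were taken, except those whose small RNA has a PC name. This gave 1874 lines of the 12450 in the series, on 1165 unplaced ids of 7483 transcripts. Another 83 unplaced ids were paired with PC small RNAs alone and are not counted. The lines name 571 small RNAs of 175 families. Lines with the same transcript or the same small RNA, and with reads that differ by at most 20% over the libraries, were counted once, as 1 degradome signal, which left 1141 unplaced-id signals of the 4574 in the series.

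Leaves of wheat (Triticum aestivum) seedlings were compared after 2 days in 3 groups. These were seedlings left as control, seedlings given dithiothreitol (DTT), and seedlings given DTT together with tauroursodeoxycholic acid (DTT+TUDCA). Each treatment had 3 libraries, which the series describes as independent biological replicates, although the labels list 1 sample per treatment and the replicates appear only as columns of the tables. DTT is a reductant that breaks disulphide bonds, which proteins need to fold in the endoplasmic reticulum (ER). The bile acid TUDCA is widely used to relieve ER stress. All plants belong to 1 species, and the sources used here name no cultivar, dose or further treatment. The libraries held between 11253643 and 13006162 reads, as recovered from the deposited normalization, of which 4771 to 7430 per library lay on the listed signals. The series asked which transcripts are cut under the guidance of microRNAs involved in ER stress.

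A plant microRNA guides an Argonaute protein to a nearly complementary transcript, and the cut leaves a downstream fragment with a 5′ monophosphate. Degradome sequencing reads the 5′ ends of such fragments, and it also reads the ends of transcripts that decay in other ways. Much of the known target repertoire in plants consists of transcription factor transcripts cut by old, conserved families. Younger families, many of them particular to grasses or to wheat and its relatives, have fewer known targets. An unplaced id is a transcript to which the tables and the gene table used here give no gene name, place in the genome or product, so no function is given to any of them. The ids used for comparison begin with Traes (4934 transcripts). A chromosome arm is part of 4674 of these ids, and 232 are spelled TRAES3B, with the chromosome and no arm. The tables hold no cut position, no cleavage category and no transcript abundance, so more cutting, more transcript and slower decay of the fragments cannot be told apart in any value below. Transcript lengths are likewise not in the tables, so the reads of different transcripts are not compared per length.

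Of the 1141 unplaced-id signals, 777 were listed on unplaced ids alone, 313 on both unplaced and Traes ids, and 51 on unplaced and EPlTAEG ids, another id kind of the tables. Together they held 8991 reads over the 9 libraries, 16.3% of the 55312 reads on all signals. The 777 signals on unplaced ids alone held 7182 reads, and the 2781 signals on Traes ids alone held 38244 reads. By transcript, 707 unplaced ids had no signal shared with another id kind, 384 had only shared signals, and 74 had both. A shared signal joins lines of more than 1 id kind by their counts. In 306 of the 313 signals on both kinds an unplaced and a Traes line had equal counts in all 9 libraries, but 169 of the 313 had a single read, so equal counts do not show that the reads are the same.

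The Traes ids in these 313 signals give a place only for the Traes transcripts. In 153 of the signals they lay on 1 arm (or on 3B), in 77 on several arms of 1 homeologous group, and in 83 on several homeologous groups. Homeologous groups are the sets of matching chromosomes from the A, B and D genomes of bread wheat.

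Most unplaced-id signals were thin. The median signal on unplaced ids alone had 2 reads over all 9 libraries, against 3 for Traes ids alone. A single read made up 29.7% of the former and 27.0% of the latter. At least 10 reads were reached by 94 signals on unplaced ids alone (12.1%) and by 506 on Traes ids alone (18.2%). Signals shared between both kinds were the thinnest, with a median of 1 read and 54.0% at a single read. Lines with a single read meet the rule for merging most easily, so depth by kind of id cannot be separated from the merging. Over all 1141 unplaced-id signals, 36.9% had a single read. A read was present in every library for 25 signals on unplaced ids alone (3.22%) and for 125 on Traes ids alone (4.49%), whereas 50.8% and 42.7% were seen in 1 library only. These are descriptions of the tables, and the differences between the kinds of id in depth per signal were not tested.

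**Figure D1:**
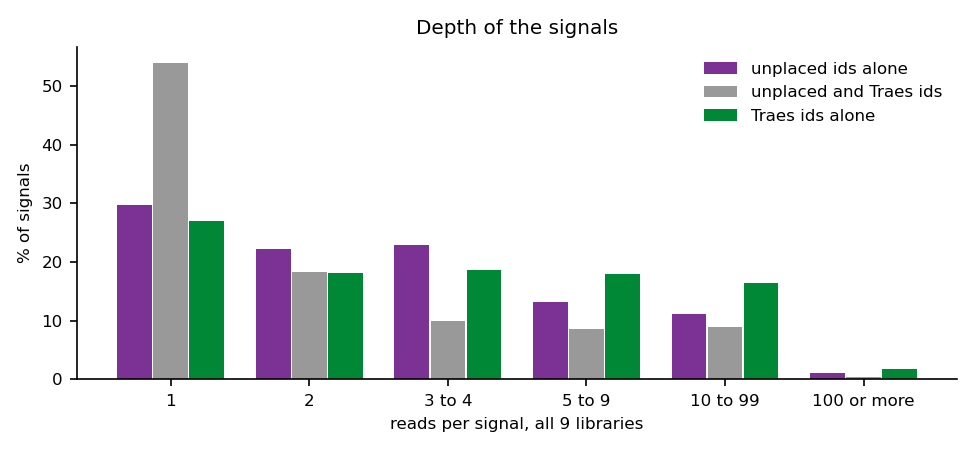
Share of signals (vertical axis, %) by the number of reads a signal had over all 9 libraries (horizontal axis), for signals listed on unplaced ids alone (777), on both kinds (313) and on Traes ids alone (2781). The bars of the shared signals are highest at 1 read (54.0%), and the Traes bars are above the unplaced bars from 5 reads upwards.

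The reads were concentrated on few of these signals. The 10 strongest signals on unplaced ids alone held 49.5% of that group's reads, and the 10 strongest on Traes ids alone held 32.4% of theirs. Among all 1141 unplaced-id signals, 126 had 10 reads or more and held 72.0% of the reads, and 9 had 100 or more and held 40.9%. Counted by transcript, the median unplaced id had 2 reads (interquartile range 1 to 5), and the median Traes id had 3 (1 to 7). Of the unplaced ids, 37.3% had 1 read, 163 (14.0%) had 10 or more and 16 (1.37%) had 100 or more. The corresponding shares of Traes ids were 32.3%, 18.3% and 2.11%.

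The transcript with the most reads was Novel13637, with 1376 reads in 2 signals. Novel16150 and Novel11325 followed with 857 and 847 reads, and 847 reads of each were listed with equal counts in 1 signal. Novel08264 had 413, and Novel07618, Novel07921 and Novel08210 had 304 each, in 1 signal. The order by number of signals was different. Novel15451 had 30 signals with 69 small RNAs, all of family miR5368, whereas no Traes id had more than 6 signals. Its 30 signals held 260 reads in all, the strongest 63 and the median 3. Of the unplaced ids, 81.4% had 1 signal, close to the 83.2% of Traes ids.

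The other transcripts with many signals belonged to other families. Novel12989 had 6 signals and 200 reads from miR1120, miR1122 and miR1130, families of short repeat-derived RNAs in cereals. Novel05829 had 6 signals from miR4995 with 16 reads in all. Novel17756 had 6 signals with 12 reads from miR6173 and miR946, and Novel08021 had 5 signals with 287 reads, all from miR5048. The summed reads of Novel15451 were 29, 26 and 31 in the control libraries, 23, 24 and 24 in DTT and 33, 40 and 30 in DTT+TUDCA. Per 10M library reads these were 23.9 ± 3.33, 18.7 ± 0.454 and 26.8 ± 3.54 (mean ± SD, n = 3 each), with all 3 DTT libraries below the other 6. The sums include gma-MIR5368-p3_1ss5AT, described below, with 28 reads in the control libraries, 7 in DTT and 28 in DTT+TUDCA. Without that signal the control and DTT libraries overlapped. The sums of Novel12989 were 19.9 ± 4.17, 14.2 ± 1.37 and 19.3 ± 6.91, with the DTT libraries below the controls and DTT+TUDCA overlapping both. These sums were not tested.

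The small RNAs paired with unplaced ids were for the most part not particular to them. Of the 571, 468 (82.0%) were also paired with a Traes id and 103 were not. Wheat (tae) names were carried by 72 and names from other species by 499, and the tables mark 446 names as variants with a changed end or base. Hairpin-arm names (MIR, p5 or p3) were carried by 330, and they are counted under their family number like the others. Of the 175 families, 159 were also paired with Traes ids. The 16 families that were not are thinly covered, and the largest, miR1118 and miR9672, had 18 reads in 3 signals each. Next came miR4245 with 9 reads and miR9782 with 6, and the other 12 families had between 1 and 3 reads each. The lines of 45 unplaced-id signals named small RNAs of more than 1 family, and such signals were counted under the family of their strongest unplaced line.

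The families paired with most unplaced-id signals were miR5368 with 76 signals, miR1122 with 75 and miR169 with 48. miR161 followed with 30, miR482 with 29, and miR5048, miR158 and miR156 with 26 each. miR5049 and miR1127 had 23 signals each, miR164 and miR172 had 22 each, miR5655 had 21, and miR1862, miR847 and miR6300 had 19 each. The order by reads was led by miR1122 with 1551 reads, 17.3% of all reads on unplaced-id signals. miR9676 followed with 1354 reads in a single signal, then miR5048 with 755, miR5368 with 703, miR816 with 417 and miR2916 with 217. miR169 had 175 reads, and miR158 had 141, with miR9674 and miR482 between them. Most of a family's reads often lay in 1 signal, 54.6% for miR1122 and 51.8% for miR482, but only 8.0% for miR169 and 22.8% for miR5048.

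The families were then grouped as conserved regulatory families with a well known target class (29 families listed), the range miR1117 to miR1139, the range miR9650 to miR9799, and all other names. Many wheat members of miR1117 to miR1139 match short inverted-repeat transposons. Many, though not all, names from miR9650 to miR9799 were first given to small RNAs of wheat and its relatives. Of the reads on unplaced ids alone, conserved families held 8.30% ± 1.74 per library (SD, n = 9 libraries of all treatments), against 56.0% ± 4.28 of the reads on Traes ids alone. The repeat-associated range held 24.6% ± 5.38 against 0.779% ± 0.354. The miR9650 to miR9799 range held 21.8% ± 7.00 against 2.11% ± 0.319. Single signals weighed heavily in both ranges: 847 of the 1758 reads in the repeat-associated range and 1354 of the 1615 reads in the miR9650 to miR9799 range lay in 1 signal each. With the strongest signal of each kind of id left out, an alternative chosen after seeing the data, the difference in the miR9650 to miR9799 range was 2.21 points instead of 19.7. The signal left out on unplaced ids was the one with 1354 reads, and the repeat-associated signal with 847 reads stayed in.

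Each of these differences had the same direction in 9 of 9 libraries, at -47.7, 23.9 and 19.7 percentage points. An exact two-sided sign-flip test over the 9 libraries gave p = 0.00390625 for each, the smallest that 9 libraries can give, and 0.0046875 after Benjamini-Hochberg adjustment over 6 measures. The libraries measure the same transcripts again, so this p covers the spread between libraries and not the choice of transcripts. The other names held 45.3% ± 6.37 and 41.1% ± 4.20, a difference of 4.19 points that was positive in 6 of 9 libraries (exact p = 0.238, adjusted p = 0.238). It was 11.4 points with the strongest signals left out (exact p = 0.0156) and 9.15 with only identical lines merged (exact p = 0.0352), so this comparison depends on the counting. Small RNAs with wheat names stood behind 52.9% of the reads on unplaced ids alone and 22.8% of those on Traes ids alone, a difference of 30.2 points in 9 of 9 libraries with the same exact p. By number of signals, conserved families had 160 of 777 (20.6%) for unplaced ids alone and 938 of 2781 (33.7%) for Traes ids alone. The repeat-associated range had 16.1% against 2.09% of the signals, and the miR9650 to miR9799 range 5.41% against 3.88%.

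**Figure D2:**
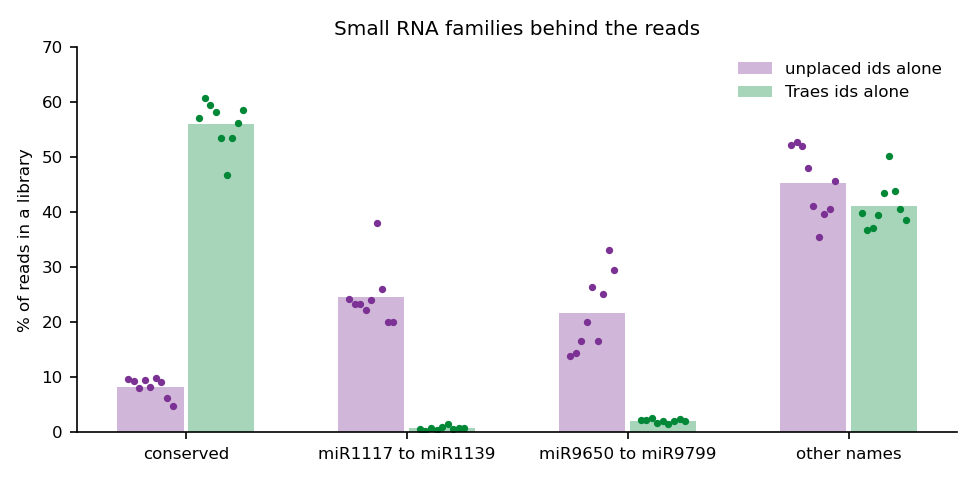
Share of reads in a library (vertical axis, %) that lay in each family group, for signals on unplaced ids alone and on Traes ids alone. Bars are means over 9 libraries and points are libraries. Conserved families average 8.30% on unplaced ids and 56.0% on Traes ids, with no overlap between the points.

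Every conserved family with an unplaced-id signal had fewer reads on such signals, shared ones included, than on Traes ids alone. Over all families the reads were 8991 against 38244, so fewer reads alone do not set a family apart. miR319, with 10 against 49, and miR159, with 31 against 173, lay near that proportion, and miR1432, with 13 against 17, above it. The families named next had the most reads on Traes ids alone. miR160, which targets auxin response factor transcripts, had 17 unplaced-id signals with 39 reads and 58 signals on Traes ids alone with 4876 reads. miR169, known for NF-YA subunits, had 175 reads on unplaced ids and 4142 on Traes ids alone. miR172, known for AP2-like factors, had 50 against 2793, and miR164, known for NAC factors, had 108 against 2807. miR167, which also targets auxin response factors, had 25 against 1469. miR171, known for GRAS factors, came closest to parity, with 72 reads in 16 unplaced-id signals and 77 in 19 signals on Traes ids alone. Of the 29 conserved families listed, 23 had at least 1 unplaced-id signal.

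The strongest conserved signals on unplaced ids were small. tae-miR164 on Novel12907 had 37 reads, shared with Traes ids on 2AL and 2BL, at 1, 2 and 1 in the control libraries, 7, 5 and 3 in DTT and 3, 9 and 6 in DTT+TUDCA. All 6 treated libraries were above the 3 controls in reads, and the signal was named as the strongest of its family, so these counts are a description. ata-MIR171a-p5 on Novel05373 had 36 reads, between 1 and 8 in each library. An miR396 hairpin variant on Novel17575 had 27 reads, 4 in each control library and 0 to 7 in the others, where miR396 is known for growth-regulating factors. The strongest miR156 signal was of osa-MIR156k-p3_2ss13TC17TC, a hairpin variant in a family known for SPL factors. It had 25 reads on Novel00575 and other unplaced ids, with 0 in 3 of the 9 libraries.

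The raw reads on unplaced ids also stood closer to the second read number of the tables, which is never above the raw count. The raw count over this number, called the divisor here, was 1 for 465 of 777 signals on unplaced ids alone (59.8%) and for 682 of 2781 on Traes ids alone (24.5%). The median divisor was 1 and 2.4. Summed per library, the ratio of raw reads to second number was 1.29 for unplaced ids alone and 2.03 for Traes ids alone, lower in 9 of 9 libraries (difference -0.75 ± 0.08, SD, exact sign-flip p = 0.00390625, adjusted p = 0.0046875). No header states what the divisor counts.

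The treatments were compared first by total reads. Per 10M library reads, signals on unplaced ids alone had 519, 591 and 624 in the control libraries, 627, 609 and 603 in DTT, and 685, 734 and 745 in DTT+TUDCA. The 3 DTT+TUDCA libraries lay above the other 6, and control and DTT overlapped. Of these totals, tae-miR9676-5p on Novel13637 alone made up 66.7 ± 15.4, 104.9 ± 26.6 and 186.8 ± 23.8 (SD, n = 3 each). Without that signal the libraries of all treatments overlapped. These totals were not tested. Signals on Traes ids alone had 2798, 3160 and 3114 in the control libraries, 3934, 3499 and 2487 in DTT, and 3527, 3984 and 4047 in DTT+TUDCA. Here DTT replicate 3 stood apart as the lowest of all 9 libraries, while its unplaced-id reads did not.

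The ratio of reads on unplaced ids alone to reads on Traes ids alone was 0.185, 0.187 and 0.2003 in the control libraries, 0.159, 0.174 and 0.243 in DTT, and 0.194, 0.184 and 0.184 in DTT+TUDCA. All groups overlapped, and the highest and the lowest value were both DTT libraries. On the log2 scale the difference was -0.02 for DTT against control (exact two-sided permutation p = 1), -0.03 for DTT+TUDCA against control (exact p = 0.5) and -0.01 for DTT+TUDCA against DTT (exact p = 1). With 3 libraries against 3 the smallest possible p is 0.1. The sign of each of these small differences turned under some other ways of counting the same reads. With the strongest signal of each kind left out, the ratio was 0.182 ± 0.005 in the control libraries, 0.168 ± 0.043 in DTT and 0.150 ± 0.006 in DTT+TUDCA (SD, n = 3 each), and the control and DTT+TUDCA libraries no longer overlapped (log2 difference -0.28, exact p = 0.1). The unplaced-id signal left out was tae-miR9676-5p on Novel13637, whose mean per 10M was highest in DTT+TUDCA (186.8 against 66.7 in the control).

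**Figure D3:**
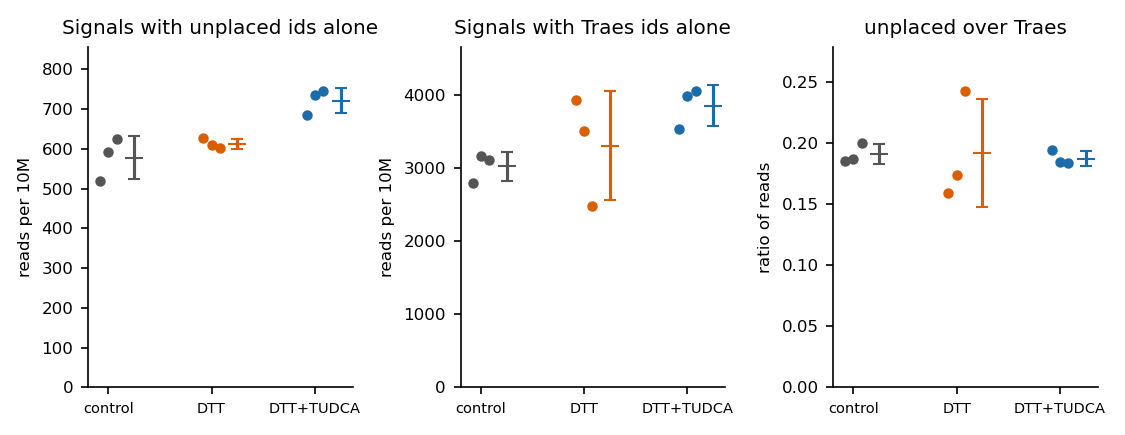
Reads per 10M library reads on signals with unplaced ids alone (left) and Traes ids alone (middle), and their ratio (right), by treatment. Points are libraries, and bars give the mean and SD of 3. The ratios of all treatments overlap, with DTT libraries at both ends (0.159 and 0.243).

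The mean number of signals with a read was highest in DTT+TUDCA for unplaced-id signals, for signals on Traes ids alone and for all signals. For Traes ids alone and for all signals the libraries overlapped. DTT replicate 1 had 954 and 1435 of these, and DTT+TUDCA replicate 1 had 924 and 1414. The number of unplaced-id signals with a read was 259 ± 29.0 in the control libraries, 261 ± 28.5 in DTT and 318 ± 11.7 in DTT+TUDCA (SD, n = 3 each), with the lowest DTT+TUDCA library at 305 and the highest other library at 288. Over all 4574 signals the numbers were 1190 ± 44.8, 1275 ± 159 and 1503 ± 83.0, so unplaced-id signals made up 21.7% ± 1.75, 20.5% ± 0.528 and 21.1% ± 0.396 of the signals seen, with overlap between all treatments. The reads on all signals moved the same way (5361 ± 435, 5978 ± 1141 and 7098 ± 518), and their part in the number seen was not tested. Over the 3 libraries of a treatment, 220 unplaced-id signals (19.3%) were seen in the control alone, 213 (18.7%) in DTT alone and 281 (24.6%) in DTT+TUDCA alone, beside 15.7%, 16.6% and 21.5% of all signals. Few of these were seen in all 3 libraries of that treatment, 0 of 1141 in the control libraries, 1 in DTT and 6 in DTT+TUDCA. On Traes ids alone the numbers were 7, 4 and 17 of 2781 signals, and the counts were not tested. The strongest unplaced-id signal seen in 1 treatment alone had 12 reads. A total of 188 unplaced-id signals (16.5%) were seen in all treatments, beside 22.4% of all signals.

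For single signals, raw counts were tested with edgeR's quasi-likelihood test, and p-values were adjusted over all signals tested in a comparison. The filter on low counts left few unplaced-id signals, 23 of 1141 in DTT against control and 25 in each of the other comparisons. Both comparisons against the control share the 3 control libraries. In DTT against control, 0 of the 23 passed an adjusted p of 0.05 (2 had an unadjusted p under 0.05, and DESeq2 also called 0), where 3.21% of all signals tested passed. The median log2 fold change of the 23 was -0.22, beside -0.08 over all tested, with 7 above 0 and 16 below. In 5 of them (21.7%) the 3 libraries of one treatment did not overlap the 3 of the other, beside 21.8% of all tested, a share near the background.

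In DTT+TUDCA against control, 1 of the 25 passed, where 9.64% of all signals tested passed. The median of the 25 was -0.08, beside 0.30 over all tested, with 12 above 0 and 13 below. The groups did not overlap in 5 of the 25 (20.0%), beside 22.9% of all tested. In DTT+TUDCA against DTT, 0 of 25 passed (0 with an unadjusted p under 0.05, and 0 by DESeq2), where 1.07% of 187 passed. Their median was 0.24, beside 0.26 over all tested, and 4 of 25 (16.0%) did not overlap, beside 15.5%. Taking signals on unplaced ids alone, 17 were tested in each comparison, with medians of -0.20, -0.22 and 0.12, beside 0.03, 0.33 and 0.26 for those on Traes ids alone. These medians were not tested against each other.

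**Figure D4:**
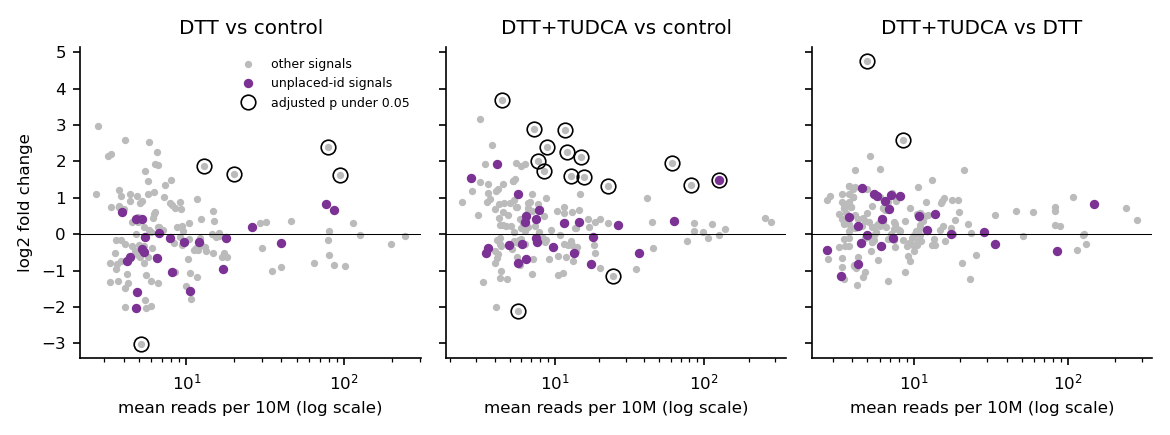
Log2 fold change (vertical axis) against mean reads per 10M library reads (horizontal axis, log scale) of every signal tested in each comparison. Dark points are unplaced-id signals, and rings mark an adjusted p under 0.05 by edgeR. One unplaced-id signal is ringed, in DTT+TUDCA against control, at a log2 fold change of 1.49.

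The signal that passed was tae-miR9676-5p on Novel13637, the strongest of all unplaced-id signals with 1354 reads. miR9676 is a small RNA family named in wheat, for which no target role is given here. The control libraries had 67, 78 and 94 reads, the DTT libraries 124, 168 and 106, and the DTT+TUDCA libraries 206, 270 and 241. Every treated library was above every control library in reads, and every DTT+TUDCA library was above every DTT library. Per 10M library reads the levels were 66.7 ± 15.4, 104.9 ± 26.6 and 186.8 ± 23.8 (SD, n = 3 each), and on this scale control and DTT overlapped slightly.

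In DTT+TUDCA, tae-miR9676-5p reads on Novel13637 rose against the control by 1.49 on the log2 scale (SE 0.30, adjusted p = 0.000223 by edgeR). The median of all tested signals in that comparison was 0.30, and relative to it the rise was 1.19. The differences of the same signal in DTT against control (log2 0.65, SE 0.46, adjusted p = 0.516) and in DTT+TUDCA against DTT (log2 0.83, SE 0.43, adjusted p = 0.752) did not pass, and the latter was 0.53 with TMM scaling. Its divisor was 1, so the second read number equalled the raw count. Of all reads listed for tae-miR9676-5p, 99.3% lay on Novel13637. Its other line, on Traes_1BL_AA26F582E, had 0 reads in all control and DTT libraries and 1, 4 and 4 in DTT+TUDCA. A hairpin variant of the family on Traes_1AL_D6A532C66 had 26 reads in 7 libraries. The second signal of Novel13637, tae-MIR1121-p3, had 22 reads, with 1 in each control library and 1 to 7 in the treated ones.

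The second strongest signal was tae-MIR1122a-p3_1ss7AG on Novel11325 and Novel16150, with 847 reads. It had 75, 70 and 56 reads in the control libraries, 94, 105 and 174 in DTT, and 143, 57 and 73 in DTT+TUDCA. All DTT libraries were above all controls, while DTT+TUDCA spanned both. The difference of DTT from control was 0.82 on the log2 scale (SE 0.45, adjusted p = 0.342 by edgeR), which did not pass, and 0.52 without DTT replicate 3. Its divisor was about 2, and 2 unplaced ids share it. The DTT library with 174 reads is replicate 3, the library with the lowest Traes reads. In that library the repeat-associated range held 38.0% of the reads on unplaced ids alone, against 20.1% to 26.1% in the others.

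Other miR1122 signals were weaker. tae-MIR1122c-p3 on Novel12989 had 120 reads, between 7 and 19 in each library, with overlapping groups. tae-miR1122b-3p_1ss11GT on Novel15588 and Novel18018, shared with a Traes id on 4DL, had 10, 8 and 4 reads in the control libraries, 7, 8 and 2 in DTT, and 10, 14 and 13 in DTT+TUDCA. The DTT+TUDCA libraries were above the DTT libraries (log2 1.09, SE 0.60, adjusted p = 0.752 by edgeR), which did not pass, and the difference was 0.68 without DTT replicate 3. Summed over its 75 unplaced-id signals, miR1122 had 116 ± 7.13 reads per 10M in the control libraries, 157.1 ± 44.8 in DTT and 139 ± 28.2 in DTT+TUDCA, and on its 11 signals with Traes ids alone 3.71 ± 2.97, 5.51 ± 1.51 and 2.36 ± 1.41.

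miR5048, a family known from barley and wheat, gave 5 of the 15 strongest unplaced-id signals. hvu-miR5048a_L+2R-2 on Novel06234 had 18, 16 and 23 reads in the control libraries, 8, 8 and 4 in DTT, and 10, 14 and 18 in DTT+TUDCA. The DTT libraries were below all 6 others, and the difference from control was -1.57 (log2, SE 0.60, adjusted p = 0.129 by edgeR), which did not pass. tae-miR5048-5p_L+2R-2 on the same transcript had 7, 7 and 12 reads in the control libraries, 4, 3 and 2 in DTT and 3, 7 and 6 in DTT+TUDCA, with a difference of DTT from control of -1.58 (adjusted p = 0.337).

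The other miR5048 signals overlapped between treatments. tae-miR5048-5p_L+2R-2 on Novel08021 had 14, 29 and 37 reads in the control libraries, 25, 9 and 10 in DTT, and 8, 13 and 27 in DTT+TUDCA (DTT against control log2 -0.95, adjusted p = 0.308 by edgeR). That difference was -0.57 without control replicate 3 and -1.57 without DTT replicate 1. The signal of tae-MIR5048-p3_1ss16TG on Novel08021 had 92 reads, hvu-miR5048a_L+2R-2 on Novel11267 had 152, and the same small RNA on Novel09793 and a Traes id on 4AL had 73. Summed over its 26 unplaced-id signals the family had 78, 102 and 125 reads in the control libraries, 94, 53 and 31 in DTT, and 59, 97 and 116 in DTT+TUDCA. Per 10M these were 85.2 ± 24.6, 47.0 ± 25.6 and 71.0 ± 23.4, and the groups overlapped.

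miR5368, named in soybean, had the most signals. gma-MIR5368-p3_1ss7AT_1 on Novel07618, Novel07921 and Novel08210, shared with Traes ids on 5BL and 5DL, had 304 reads, at 31, 28 and 28 in the control libraries, 27, 36 and 43 in DTT and 48, 34 and 29 in DTT+TUDCA. These overlapped. gma-MIR5368-p3_1ss5AT on Novel15451 had 11, 5 and 12 reads in the control libraries, 1, 1 and 5 in DTT, and 5, 14 and 9 in DTT+TUDCA. Per library read its DTT libraries were below the controls (log2 -2.03, SE 0.87, adjusted p = 0.194 by edgeR), which did not pass. Without DTT replicate 3 the difference was -3.14. The family's unplaced-id sum was 55.9 ± 4.02, 63.3 ± 7.08 and 67.7 ± 4.99 per 10M. Its 251 signals on Traes ids alone summed to 135 ± 3.22, 201 ± 5.19 and 202 ± 21.8. Control and DTT overlapped on unplaced ids and did not overlap on Traes ids, while DTT+TUDCA was above the control on both. These sums were not tested.

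Among the other strong signals, osa-MIR816-p5_2ss7TG17AC on Novel08264 had 52, 63 and 42 reads in the control libraries, 59, 50 and 30 in DTT, and 47, 42 and 28 in DTT+TUDCA. Per library read the DTT+TUDCA libraries were below the controls (log2 -0.51, SE 0.36, adjusted p = 0.517 by edgeR), which did not pass, and the difference was -0.33 without DTT+TUDCA replicate 3. peu-miR2916_R-4_1ss6AG on Novel02400 had 200 reads, at 18.5 ± 0.679, 17.3 ± 4.35 and 17.5 ± 6.65 per 10M, and the difference of DTT+TUDCA from control was -0.08 (SE 0.40). gra-MIR482d-p5_2ss16AT18AT on Novel06658 had 86 reads, of which 23 were in control replicate 1 and 2 and 5 in the other controls. miR482 is known in other plants for targeting transcripts of NBS-LRR disease resistance genes.

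The remaining signals with most reads or smallest p came from several families. osa-MIR1862d-p3 on Novel06842 had 2, 3 and 1 reads in the control libraries, 6, 4 and 0 in DTT, and 6, 6 and 13 in DTT+TUDCA. Its DTT+TUDCA libraries were above its controls (log2 1.92, SE 0.89, adjusted p = 0.188 by edgeR), which did not pass. hvu-MIR5050-p5 on Novel17913 had 2, 18 and 10 reads in DTT+TUDCA and 3 to 7 in each control library, with overlap (log2 1.10, adjusted p = 0.420 by edgeR), and the difference was 0.40 without DTT+TUDCA replicate 2. tae-MIR9670-p5 on Novel17072, shared with Traes ids on 1BL, 6BS and 6DS, had 6, 3 and 10 reads in the control libraries, 5, 6 and 2 in DTT and 10, 13 and 6 in DTT+TUDCA. ata-miR9863a-3p_1ss9TC on Novel17670 and a Traes id on 7DS had 67 reads, between 3 and 16 in each library, and tae-MIR1122a-p3_1ss7AG on Novel10434 had 71, between 4 and 16.

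**Figure D5:**
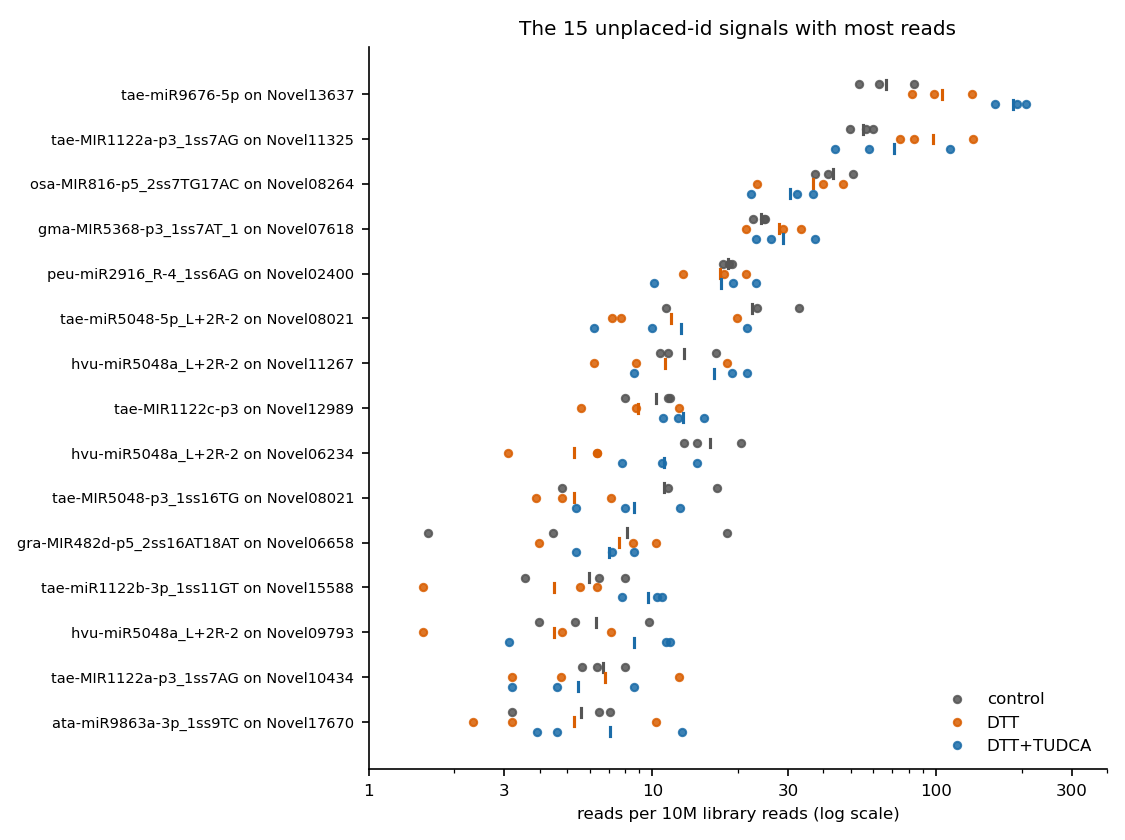
Reads per 10M library reads (horizontal axis, log scale) of the 15 unplaced-id signals with most reads, by small RNA and first unplaced id. Points are libraries and vertical ticks are means of 3. For tae-miR9676-5p on Novel13637 the DTT+TUDCA points lie above all others, with a mean of 186.8 against 66.7 in the control.

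The family sums by treatment were described for the remaining families with most unplaced-id signals or reads, without a test. miR9674 had 17.5 ± 6.43 reads per 10M in the control libraries, 13.7 ± 5.86 in DTT and 13.5 ± 8.92 in DTT+TUDCA. miR161 had 15.7 ± 5.56, 8.71 ± 3.73 and 13.3 ± 6.16 on unplaced ids, while its signals on Traes ids alone had 36.1 ± 5.44, 79.4 ± 3.10 and 61.1 ± 9.11. Thus the unplaced-id mean of miR161 was lowest in DTT and its Traes mean was highest there. On unplaced ids every pair of treatments overlapped, and the difference in direction was not tested. miR169 had 15.2 ± 2.52, 18.5 ± 8.46 and 13.0 ± 4.66 on unplaced ids, miR164 had 6.87 ± 3.16, 8.70 ± 6.23 and 13.0 ± 3.80, and miR172 had 4.43 ± 1.24, 5.28 ± 1.71 and 3.67 ± 2.75. miR156 had 8.99 ± 3.71, 14.7 ± 5.40 and 8.34 ± 0.899, and miR482 had 17.0 ± 6.74, 13.1 ± 4.56 and 14.1 ± 4.09. For these 5 families every pair of treatments overlapped. miR1862 had 7.92 ± 4.70, 5.29 ± 3.24 and 12.5 ± 2.05, with DTT+TUDCA above DTT in every library. miR816 had 43.2 ± 6.98, 37.5 ± 13.2 and 30.7 ± 7.47, with DTT+TUDCA below the control in every library. miR158 had 12.1 ± 1.96, 14.7 ± 4.08 and 10.7 ± 3.17, and miR5049 had 9.77 ± 2.63, 11.9 ± 12.4 and 12.0 ± 4.44. For miR5049 the DTT libraries had 33, 5 and 7 reads. miR5655 had 8.53 ± 1.77, 6.86 ± 1.91 and 9.40 ± 3.17, and miR1127 had 4.10 ± 1.46, 6.06 ± 1.28 and 4.66 ± 2.66. miR6300 had 6.95 ± 0.911, 4.48 ± 1.26 and 5.49 ± 2.37, with DTT below the control in every library. miR2916 had 20.2 ± 0.587, 17.6 ± 4.42 and 20.1 ± 6.13.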

How the data were processed

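Of wheat leaves, 9 degradome libraries were used, 3 per treatment. The labels list 1 sample per treatment, and the columns of the tables were taken as its replicates by treatment letter and number, so every n = 3 rests on the series' statement that they are independent. Per the labels, RNA with a RIN above 7 was used, with 150 ng of poly(A)+ RNA as input, and fragments with a 5′ monophosphate were read for 36 nt from that end. Per the file headers, the authors' tables, 1 for each pair of treatments, give raw read counts. The deposited second read number never exceeds the raw count and was handled here as an expected count, although no header states what it is. The deposited signal, TPB, equals that number times 1 factor per library, from which library reads were recovered. The sources used here do not give the mapper, transcript set or target caller, or whether these are mapped reads. The tables and the reference used here hold no small RNA or transcript sequence, so none is printed.

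Lines that share a small RNA or transcript and whose counts differ by at most 20% were merged into 1 signal. A duplicated pair on 1 unplaced id was among 3 left out. The test was edgeR's quasi-likelihood test (version 4.0.16, in R 4.3.3) of raw counts on the 2 treatments compared, with library reads as library sizes and edgeR's filter (minimum count 5, minimum total 10). Calls were made at a Benjamini-Hochberg adjusted p of 0.05, and the procedure was tested on simulated data. DESeq2 1.42.0 and other alternatives were run. Ratios over libraries were tested with exact permutation tests (Python 3.11.15, numpy 2.4.6), and scipy 1.17.1 was used to merge lines.

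Named are the 15 unplaced-id signals with most reads, those called, the 5 with the smallest p per comparison, the 5 transcripts with most signals, and the 15 families with most signals and 10 with most reads. Family groups follow the number in the name. The strongest signals of conserved families were added to these later. Members and lists were chosen with earlier results of these data known.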

Additional observations from a re-analysis of the deposited data

How the results depend on the processing

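The number of unplaced-id signals called was 0, 1 and 0 (DTT against control, DTT+TUDCA against control, DTT+TUDCA against DTT) by edgeR and under all 14 alternatives of each comparison, which include DESeq2, TMM scaling, no filter, other merging and leaving out each library. For tae-miR9676-5p on Novel13637 the log2 rise in DTT+TUDCA ranged from 1.28 (TMM scaling) to 1.68, with adjusted p from 5.24e-07 to 0.0227. No other named signal passed in any setting. The log2 difference in the ratio of unplaced to Traes reads turned sign in several settings, and the cause was not tested. With only identical lines merged it was 0.0204, 0.0329 and 0.0126 in the order above. With the second read number it was 0.0597 for DTT+TUDCA against control and 0.0623 against DTT, where counting signals on both kinds of id as unplaced gave 0.0096. Leaving out 1 library at a time gave -0.20 to 0.11, -0.0514 to 0.0096 and -0.13 to 0.17, where the values without DTT replicate 3 were -0.20 and 0.17. Under 4 alternatives added after the data had been seen, the differences between unplaced and Traes ids kept their direction in the shares of conserved families (-52.4 to -42.8 points), the repeat-associated range (23.3 to 29.3), miR9650 to miR9799 (2.21 to 19.7), other names and wheat names. None of the 4 left out the repeat-associated signal with 847 reads, so they cannot show how far that range rests on it. The difference in other names, not past 0.05 before, was past it with only identical lines merged (9.15) and with the strongest signals left out (11.4). Same-numbered replicates did not deviate together (correlations -0.22 to 0.12), and a fit with the number as a block left the counts of calls at 0, 1 and 0. The filter on low counts left out 1118, 1116 and 1116 of the 1141 unplaced-id signals, and without it 860, 928 and 921 were tested.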
